A study of Mus musculus with 4 samples.

Results

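The 5 imprinted genes Mcts2, Nnat, Gnas, Peg10 and Sgce were examined for CpG methylation in single whole-genome bisulfite libraries of mouse embryonic stem cells. They are 5 of the 49550 RefSeq genes of the autosomes and chromosome X, and they were chosen by their methylation in these same libraries, because single replicates stood apart there. Levels, replicate differences and differences between groups at these genes are therefore given as a description, with no test of them as support. Each gene was taken from 5000 bp below its lower end to 5000 bp above its upper end. The 5 windows held 3212 of the 20677079 CpGs listed, and 2514 of them had at least 1 read in every library (covered CpGs hereafter).

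The study asked how loss of Ogt alters DNA methylation in embryonic stem cells. Ogt encodes the O-GlcNAc transferase, which attaches N-acetylglucosamine to nuclear and cytosolic proteins. Both groups carried the floxed Ogt fl/fl genotype and grew on fibroblast feeders, which were removed by flow sorting. The Ogt iKO group (2 libraries) was kept in 4-hydroxytamoxifen for 6 days and sorted for cells positive for the YFP marker. The control group (2 libraries) was kept for 6 days without the drug. Loss of Ogt, exposure to the drug and the YFP gate cannot be told apart in this design, and the labels do not say whether the replicates are separate cultures or clones. Any p-value below therefore measures only the spread between these samples.

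An imprinted gene is expressed from the allele of 1 parent, and the choice is marked by CpG methylation laid down in the egg or sperm and kept on that allele in the embryo. A control region that holds its imprint is thus methylated on a single parental allele, while its partner is not, and bisulfite reads from such a region fall into methylated and unmethylated ones. The zinc finger protein ZFP57 binds a methylated 6-base motif in many of these regions and is known to protect them in embryonic stem cells. Imprints are also known to be lost, or gained on both alleles, in cultured embryonic stem cells.

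The libraries held between 63985703 and 79563364 reads over CpGs, with 3.36 to 4.05 reads for each CpG a library listed. Over all covered CpGs the pooled methylation level was 66.4% in the first Ogt iKO library and 64% in the second, and 71.2% and 74.8% in the control libraries. Within Ogt (chrX:101640011-101684351), 7 neighbouring CpGs from 101661737 to 101662231 had 0 reads in both Ogt iKO libraries and 5 and 10 reads in the controls. That run was the longest in the gene without a read in either iKO library, and the longest without a read in either control library held 2 CpGs. Around the starts of 6 pluripotency genes that could be matched of 8 listed (Pou5f1, Nanog, Tdgf1, Zfp42, Utf1 and Sox2), methylation was at most 7.46% in any library. Of 8 fibroblast genes 3 could be matched. Col1a2 and Twist2 were under 10% and Col3a1 between 65% and 94.1% in the 4 libraries, and the part of feeder DNA in the levels below was not tested.

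Each window was read in 500 bp bins. Bins with at least 10 listed CpGs were called CpG-dense, and neighbouring dense bins, joined over a gap of at most 1 bin, made a stretch. The 13 stretches with at least 20 covered CpGs that lay within the windows are described here. A level is the share of methylated reads among all reads of the covered CpGs. Since 1 DNA fragment covers several neighbouring CpGs, intervals were made as 95% Wilson intervals in which reads were counted once per bin (wide intervals). Reads counted once per bin are the mean reads per covered CpG of a bin, added over the bins of a stretch. The tables do not number fragments. This mean stands in for them and takes each fragment to span all covered CpGs of its bin. The wide intervals cover counting error only, and reads carry no molecular identifiers.

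The promoters that carry the contrasts among these loci are shown from RefSeq (GRCm38.p6, the assembly named mm10), 250 bases before to 50 bases after the transcript start, 5′ to 3′ on the plus strand. Mcts2 spans chr2:152686898-152687197, Nnat chr2:157559828-157560127 and the start of Gnas exon 1A chr2:174327499-174327798. Capitals mark the ZFP57 motif, TGCCGC or its reverse complement GCGGCA, searched on both strands. Mcts2 is shown as the promoter methylated in 1 library, Nnat as one methylated in all, and exon 1A as one with almost no methylated read. Peg10 and Sgce were not matched. The table gives the Gnas starts without transcript names, and the names Nesp, exon 1A and Gs alpha were assigned from the known order of the Gnas promoters.
Mcts2 promoter: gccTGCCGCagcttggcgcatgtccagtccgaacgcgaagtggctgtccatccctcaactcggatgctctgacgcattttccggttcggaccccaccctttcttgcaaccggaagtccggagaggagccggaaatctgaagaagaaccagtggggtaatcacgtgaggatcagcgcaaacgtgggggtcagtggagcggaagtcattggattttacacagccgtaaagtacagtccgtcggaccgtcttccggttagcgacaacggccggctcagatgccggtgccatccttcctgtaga
Nnat promoter: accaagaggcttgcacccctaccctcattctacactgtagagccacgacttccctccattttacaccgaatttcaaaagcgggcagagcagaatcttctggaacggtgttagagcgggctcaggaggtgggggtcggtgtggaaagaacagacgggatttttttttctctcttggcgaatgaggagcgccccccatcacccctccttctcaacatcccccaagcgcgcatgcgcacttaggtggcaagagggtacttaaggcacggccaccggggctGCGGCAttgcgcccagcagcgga
Gnas exon 1A promoter: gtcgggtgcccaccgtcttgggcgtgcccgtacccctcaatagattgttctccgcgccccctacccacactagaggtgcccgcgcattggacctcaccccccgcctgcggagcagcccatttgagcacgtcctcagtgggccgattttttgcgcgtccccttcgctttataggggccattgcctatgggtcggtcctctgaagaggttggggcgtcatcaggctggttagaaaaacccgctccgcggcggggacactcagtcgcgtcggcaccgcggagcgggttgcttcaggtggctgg
The Mcts2 and Nnat promoters each held 1 motif, and the exon 1A promoter 0. Of 32851 RefSeq promoters of 300 bases, 3813 (11.6%) held at least 1. The motif itself holds a CpG, and this share was not matched for CpG content. The search covered these 300 bases only and not the stretches around them. The files listed all 25 CpGs of the Mcts2 sequence, all 17 of the Nnat sequence and all 27 of the exon 1A sequence.

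Mcts2 is a retrogene that lies within an intron of H13 and is known as expressed from the paternal allele, with its promoter methylated in the egg. The gene spans chr2:152687148-152687946. Its stretch, chr2:152686001-152688000, held 86 listed and 73 covered CpGs. Methylation there was 2.11% in Ogt iKO replicate 1 (237 reads), 34.4% in Ogt iKO replicate 2 (320 reads), 1.69% in control replicate 1 (295 reads) and 2.11% in control replicate 2 (332 reads). Ogt iKO replicate 2 was thus the 1 library above 2.11%, and replicate 1 of the same group stood at the level of the controls. The wide intervals were 16.9% to 57.5% in Ogt iKO replicate 2, 0.129% to 26.4% in Ogt iKO replicate 1, 0.101% to 22.7% in control replicate 1 and 0.17% to 21.4% in control replicate 2. These rest on 17.6 reads counted once per bin in Ogt iKO replicate 2 and 12.6 to 17.4 in the other libraries. The intervals overlap in part, which is not a test of a difference. With every read counted, the interval of Ogt iKO replicate 2 was 29.4% to 39.7%, and the other 3 reached at most 4.84%. Those intervals take reads of neighbouring CpGs as independent, which they are not. They are therefore too narrow and are no support for a difference.

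The reads of Ogt iKO replicate 2 were spread along the Mcts2 stretch and not confined to a few CpGs. A methylated read was found at 49 of its 73 covered CpGs, and at 46 of them an unmethylated read was found as well. The other libraries had a methylated read at 5, 5 and 6 of these CpGs. CpG by CpG, Ogt iKO replicate 2 was higher than Ogt iKO replicate 1 at 47 and lower at 0, higher than control replicate 1 at 46 and lower at 2, and higher than control replicate 2 at 47 and lower at 2. Neighbouring CpGs share fragments, so such counts of CpGs are not independent observations. In the bin with the most CpGs, chr2:152687001-152687500 with 31, its level was 47.3% (131 reads). There the other libraries had 0 methylated reads among 88, 152 and 145, counts that allow up to 3.41%, 1.97% and 2.07% only if every read were a separate fragment. Counted once per bin these were 2.84, 4.9 and 4.68 reads, with wide intervals up to 57.5%, 43.9% and 45.1%. A level in a single bin thus rests on few reads per CpG. Over the promoter sequence printed above, the level was 40.2% of 107 reads in Ogt iKO replicate 2 and 0 of 71, 95 and 93 reads elsewhere.

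The mean of the Mcts2 stretch was 18.2% ± 22.8 (SD, n = 2) in Ogt iKO and 1.9% ± 0.292 (SD, n = 2) in control, a difference of 16.3 points that 1 library carries. Without Ogt iKO replicate 2 the difference was 0.208 points, and without Ogt iKO replicate 1 it was 32.5 points. Of 50505 stretches of the genome with at least 20 covered CpGs and 50 reads in every library, 4 (0.00792%) had 1 library at 25% or more and the other 3 at 5% or less. Of the 12 such stretches at the genes described here 1, that of Mcts2, was among them. As Mcts2 was chosen because a single library stood apart in these values, nothing is read from its place there. Outside the dense bins of the Mcts2 window, the levels were 63.8% and 69.6% in Ogt iKO and 78.1% and 76.2% in control.

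**Figure D1:**
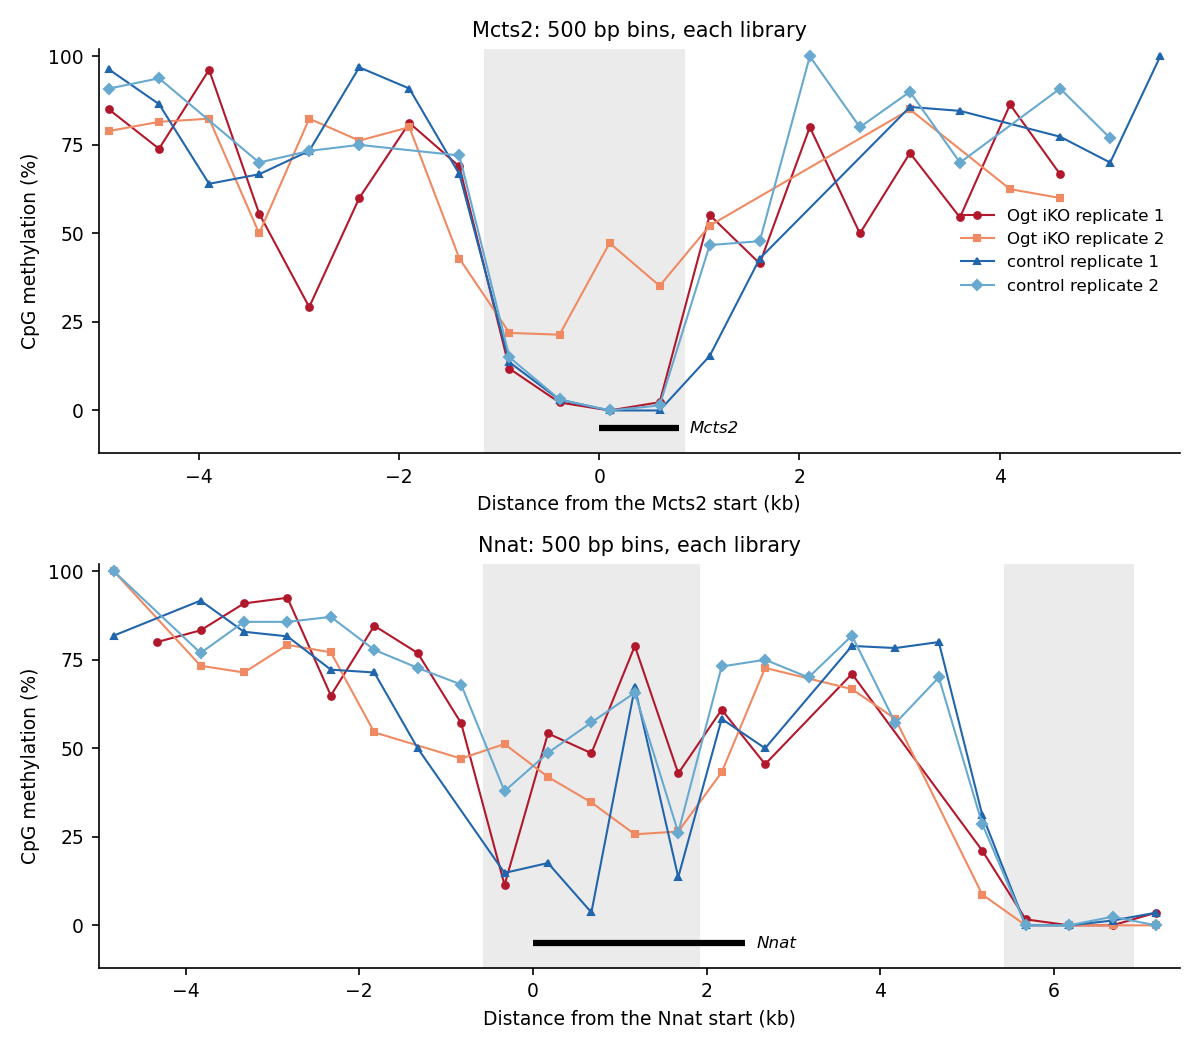
CpG methylation in 500 bp bins along Mcts2 (top) and Nnat (bottom), in percent, against the distance from the gene's start in kb; each line is 1 library, bins with under 10 reads in a library are left out, grey bands are CpG-dense stretches and the black bar is the gene. Over Mcts2 a single library, Ogt iKO replicate 2, stands at up to 47.3% where the others are at 0, and over Nnat the 4 lines cross, with control replicate 1 at 3.64% in 1 bin.

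Nnat, which encodes neuronatin, a small membrane proteolipid, lies within an intron of Blcap and is known as paternally expressed. The gene spans chr2:157560078-157562525. Its stretch, chr2:157559501-157562000, held 123 listed and 85 covered CpGs. Methylation was 50.6% in Ogt iKO replicate 1 (245 reads), 36.1% in Ogt iKO replicate 2 (219 reads), 24.5% in control replicate 1 (257 reads) and 46.2% in control replicate 2 (331 reads). The groups overlapped, and the control libraries lay farther apart (21.7 points) than the Ogt iKO libraries (14.5 points). The wide intervals of all 4 overlapped, with 10% to 48.6% in control replicate 1 and 26.6% to 67.1% in control replicate 2. The size of the replicate difference is thus uncertain when reads are counted once per bin. Control replicate 1 minus replicate 2 was -21.7 points, and -49.7 points over the CpGs with at least 3 reads in every library. The number of CpGs in that subset was not counted.

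Control replicate 2 was higher than control replicate 1 at 48 of the 85 covered CpGs and lower at 17, where neighbouring CpGs share fragments. A methylated read was found at 32 of the 85 CpGs in control replicate 1, against 60, 66 and 62 in Ogt iKO replicates 1 and 2 and control replicate 2. Along the stretch the order of the libraries changed from bin to bin. In the bin with the most CpGs, chr2:157560001-157560500 with 41, control replicate 1 was lowest at 17.6% and the others stood at 54.2%, 41.9% and 48.7%. In the next bin control replicate 1 stood at 3.64% (55 reads). In the bin after that it stood at 67.2%, and Ogt iKO replicate 2 was lowest at 25.7%. Over the promoter sequence the levels were 42.3% and 42.9% in Ogt iKO (26 and 14 reads) and 32.6% and 17.7% in control (43 and 62 reads), so that here the lower control library was replicate 2.

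The mean of the Nnat stretch was 43.3% ± 10.3 (SD, n = 2) in Ogt iKO and 35.4% ± 15.4 (SD, n = 2) in control. The difference of 7.97 points was smaller than either SD. It was -2.88 points without control replicate 1, 18.8 points without control replicate 2 and 0.704 points without Ogt iKO replicate 1. The dense stretch at the other end of the window, chr2:157565501-157567000, holds the upper end of Blcap, the host gene. It was almost unmethylated in all libraries, at 0.741%, 0%, 0.694% and 0.794%. With wide intervals that reached 27.6% to 33.3% and levels at the floor, it cannot serve as a comparison for the Nnat stretch.

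Peg10 and Sgce lie head to head on chromosome 6 and are both known as paternally expressed. Peg10 derives from a retrotransposon and is needed for the placenta, and Sgce encodes epsilon-sarcoglycan, a membrane glycoprotein. Peg10 spans chr6:4747306-4760517 and Sgce chr6:4674350-4747204, and the shared stretch between them, chr6:4746001-4749500, held 194 listed and 155 covered CpGs. It belongs to both windows and is counted once. Methylation was 42.1% and 45.9% in Ogt iKO replicates 1 and 2 (458 and 425 reads), 54.2% in control replicate 1 (384 reads) and 26.4% in control replicate 2 (484 reads). The Ogt iKO libraries were 3.74 points apart and lay between the control libraries, which were 27.7 points apart. The wide intervals of the controls, 33.5% to 73.5% and 12.5% to 47.5%, overlapped.

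Control replicate 1 was higher than control replicate 2 at 106 of the 155 covered CpGs of the shared stretch and lower at 17. Here too neighbouring CpGs share fragments. In the bin with the most CpGs, chr6:4747501-4748000 with 44, control replicate 2 had 0 methylated reads of 92, and the others stood at 63.6%, 59.4% and 46.3%. Counted once per bin, those 92 reads were 2.88, with a wide interval up to 57.2%. This bin holds the 5′ part of Peg10. In the bin before it, which holds both gene ends, Ogt iKO replicate 1 (34.3%) and control replicate 2 (31.4%) were low and Ogt iKO replicate 2 (71.7%) and control replicate 1 (70.5%) were high. Control replicate 2 was the lowest library in both bins, and Ogt iKO replicate 1 was close to it in the first only. The mean was 44% ± 2.65 (SD, n = 2) in Ogt iKO and 40.3% ± 19.6 (SD, n = 2) in control. The difference of 3.7 points became 17.6 points without control replicate 1, -10.2 points without control replicate 2 and -5.55 points over the CpGs with at least 3 reads in every library.

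Within Peg10, the stretch chr6:4754001-4757500 (64 covered CpGs) showed the reverse arrangement, with replicates of the control close and the groups apart. Methylation was 72.8% and 61.9% in Ogt iKO replicates 1 and 2 (147 and 168 reads) and 89.3% and 89.8% in control replicates 1 and 2 (178 and 177 reads). The difference was -22.2 points, and it lay between -27.7 and -16.8 points when any 1 library was left out. The difference between the Ogt iKO replicates was 10.9 points, and -33.3 points over the CpGs with at least 3 reads in every library. That subset was not counted and may be small. The wide intervals still overlapped between groups, at 47.9% to 88.6% and 40.2% to 79.7% in Ogt iKO and 70% to 96.8% and 68% to 97.4% in control.

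Inside Sgce, 3 stretches were described. The level at chr6:4721501-4724500 was 66.7% and 75.5% in Ogt iKO and 74.2% and 80.5% in control. At chr6:4733501-4735000 it was 56.7% and 61.4% against 68.2% and 78.6%, where the groups did not overlap. The difference there was -14.3 points, and -2.19 points over the CpGs with at least 3 reads in every library. At chr6:4736001-4737000 it was 64.8% and 55.4% against 61.1% and 55%, a difference of 2.05 points that was -8.91 points as an unweighted mean over CpGs. A CpG-poor part of Sgce, chosen after its values were seen, had little methylation in every library: at chr6:4739501-4740000 (9 CpGs) the level was 0%, 1.45%, 1.52% and 0% in the order Ogt iKO replicate 1, Ogt iKO replicate 2, control replicate 1, control replicate 2.

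**Figure D2:**
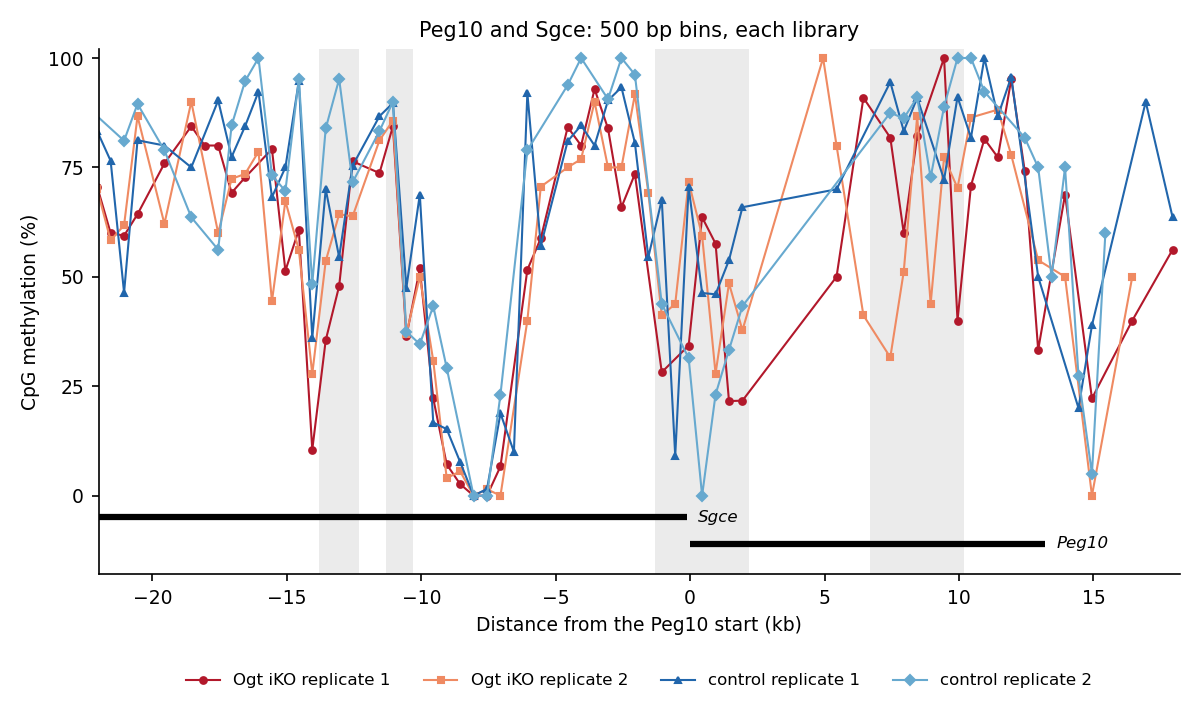
CpG methylation in 500 bp bins around Peg10 and the adjoining end of Sgce, in percent, against the distance from the Peg10 start in kb; each line is 1 library, bins with under 10 reads are left out, grey bands are CpG-dense stretches and black bars are the genes. Over the shared stretch the 4 lines spread, with control replicate 2 at 0% in the first bin wholly within Peg10, and within Peg10 both control lines are mostly above the Ogt iKO lines.

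Gnas, which encodes the stimulatory G protein alpha subunit and several other products from alternative first exons, holds regions methylated on either parental allele. The promoter of the Nesp transcript is known to be methylated on the paternal allele, and the regions of the extra-large transcript with its antisense partner and of exon 1A on the maternal allele. The gene spans chr2:174284320-174346744. The stretch at the Nesp start, chr2:174283001-174288000 (164 covered CpGs), was at 4.82% and 4.93% in the Ogt iKO replicates, against 9.96% and 7.69% in the controls. Its promoter sequence had 0 methylated reads in 3 libraries and 4.35% of 23 reads in control replicate 2.

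The stretch chr2:174295001-174301000, which holds the upper end of the antisense gene Gnasas1, had 225 covered CpGs and intermediate methylation in every library. The level was 33.9% and 33.2% in Ogt iKO replicates 1 and 2 (706 and 555 reads) and 35.8% and 38.2% in control replicates 1 and 2 (531 and 589 reads). Replicates differed by 0.7 and 2.42 points, so that the unequal levels by which the locus was chosen were not seen when its bins were pooled. Levels in single bins varied, but each rests on few reads per CpG. In chr2:174299501-174300000 the levels were 0%, 63.2%, 20% and 47.4% from 33, 19, 20 and 19 reads. Counted once per bin these were 1.58 to 2.75 reads, and the wide interval of the library at 0% reached 58.3%. In chr2:174300501-174301000 they were 27.5%, 13%, 35% and 71.9% from 91, 54, 60 and 64 reads (1.93 to 3.25 counted once per bin). A different library was lowest in each. In the bin with the most covered CpGs, chr2:174298501-174299000, the levels were 11.3%, 0%, 35.8% and 19.4%.

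The stretch with exon 1A and the start of the Gs alpha transcript, chr2:174326501-174331500 (233 covered CpGs), was at 6.14%, 5.14%, 4.19% and 3.58% in the same order. In the bin that holds exon 1A, chr2:174327501-174328000 with 46 listed CpGs, the levels were 0.794%, 0%, 0.847% and 0.68% from 126, 89, 118 and 147 reads. Exon 1A thus had hardly a methylated read in any of the 4 libraries. Over the printed exon 1A sequence the levels were 0.84%, 0%, 1.41% and 0%. The promoter of the Gs alpha transcript had 0 methylated reads in all libraries (21 to 97 reads).

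Further along Gnas, methylation was high. At chr2:174336501-174338000 it was 64.8% and 57.1% in Ogt iKO and 61.7% and 78.1% in control. At chr2:174345001-174346500 it was 68.9% and 60.8% against 71.4% and 84.4%. Control replicate 1 minus replicate 2 was -16.4 and -12.9 points in these stretches. It turned to 18.7 and 33.3 points over the CpGs with at least 3 reads in every library, a subset that was not counted and may be small. In 1 dense bin of 8 covered CpGs, chr2:174314501-174315000, Ogt iKO replicate 2 stood at 34.6% and the others at 77.8%, 79.5% and 92.6%. It was lower there than each of the other libraries at all 8 CpGs, which share fragments. Its 26 reads were 3.25 counted once per bin, and its wide interval, 6.96% to 78.9%, overlapped those of the other libraries.

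**Figure D3:**
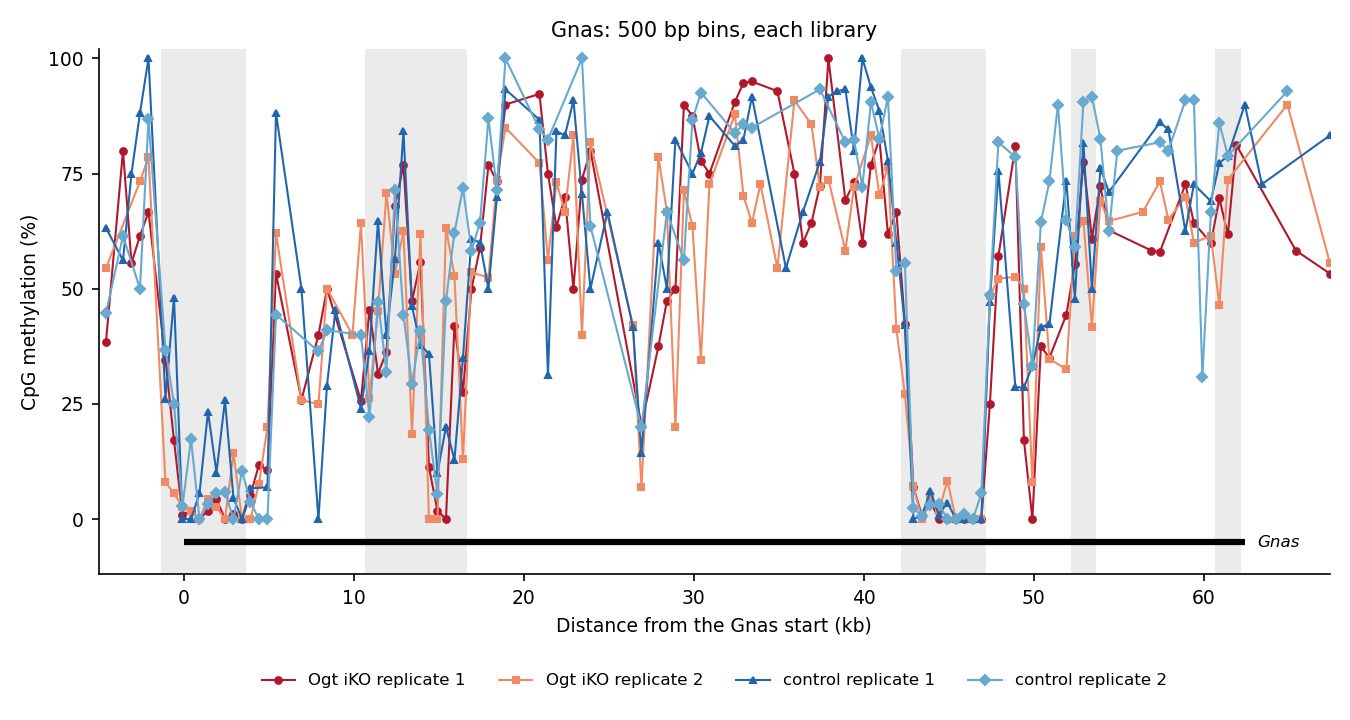
CpG methylation in 500 bp bins along Gnas, in percent, against the distance from the gene's start in kb; each line is 1 library, bins with under 10 reads are left out, grey bands are CpG-dense stretches and the black bar is the gene. All 4 lines are near 0 at the Nesp start and over exon 1A, and intermediate and crossing over the stretch with the upper end of Gnasas1, whose pooled level was 33.2% to 38.2%.

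**Figure D4:**
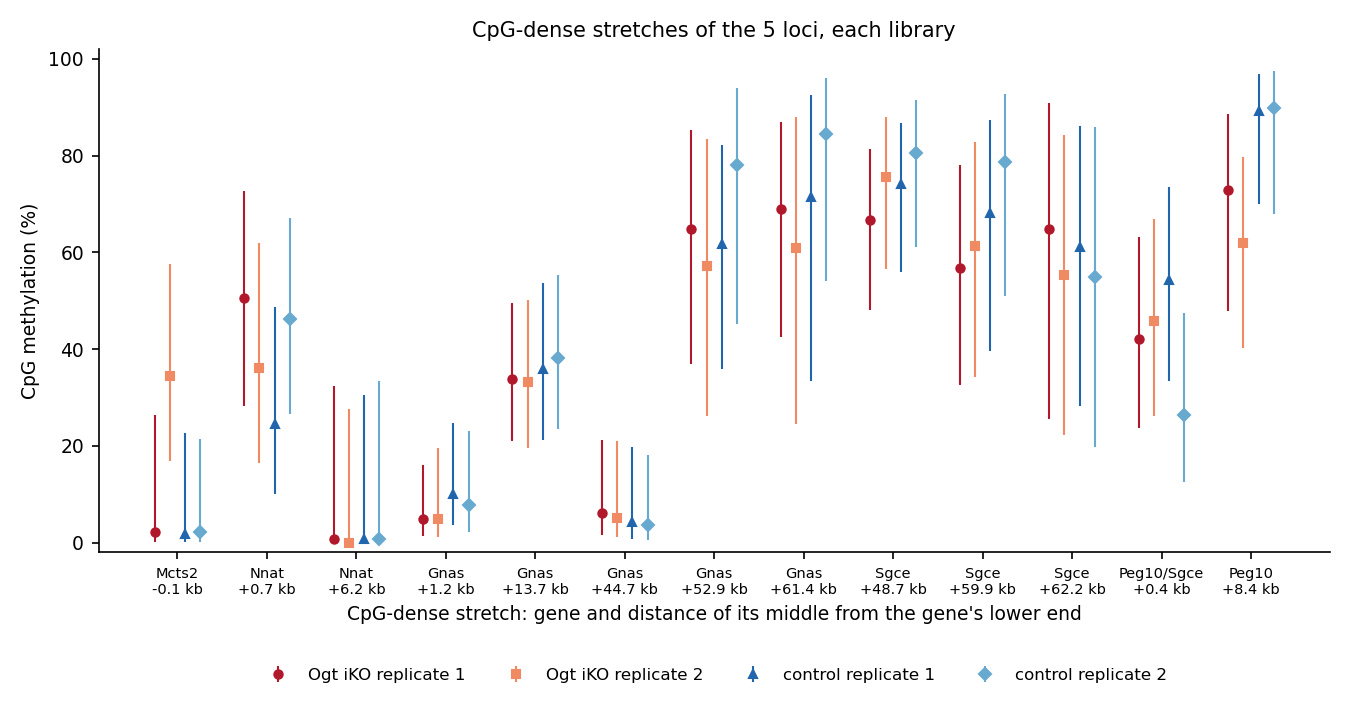
Methylation in percent of the 13 CpG-dense stretches, each library as a point with its wide interval (95% Wilson, reads counted once per 500 bp bin); labels give the gene and the distance of the stretch's middle from the gene's lower end. Ogt iKO replicate 2 stands alone at Mcts2 (34.4%), the controls are farthest apart at Peg10/Sgce (54.2% and 26.4%), and most intervals overlap.

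The background of replicate differences at this depth was read from all CpG-dense stretches of the genome with the same minimums and a mean level between 25% and 75%. There were 22986 of them, with a median difference of 6.53 points between the Ogt iKO replicates and 6.75 points between the controls. Ogt iKO replicates lay at least 20 points apart at 5.18% of them and at 0 of the 7 stretches of the 5 genes. Control replicates lay as far apart at 5.82% and at 2 of the 7, those of Nnat and of Peg10 and Sgce. As the genes were chosen on these values, nothing is read from these counts or from those of bins below. Among single CpG-dense bins of intermediate mean, 9 of 43 at the genes had Ogt iKO replicates at least 30 points apart, against 8.76% of 125533 in the genome, and 9 of 43 had control replicates as far apart, against 8.84%. Nnat gave 3 and 2 of these bins among 6, Gnas 3 and 4 among 20, Peg10 2 and 2 among 8 and Sgce 2 and 3 among 15, where bins shared by Peg10 and Sgce stand under both, and Mcts2 had 0 bins of intermediate mean.

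**Figure D5:**
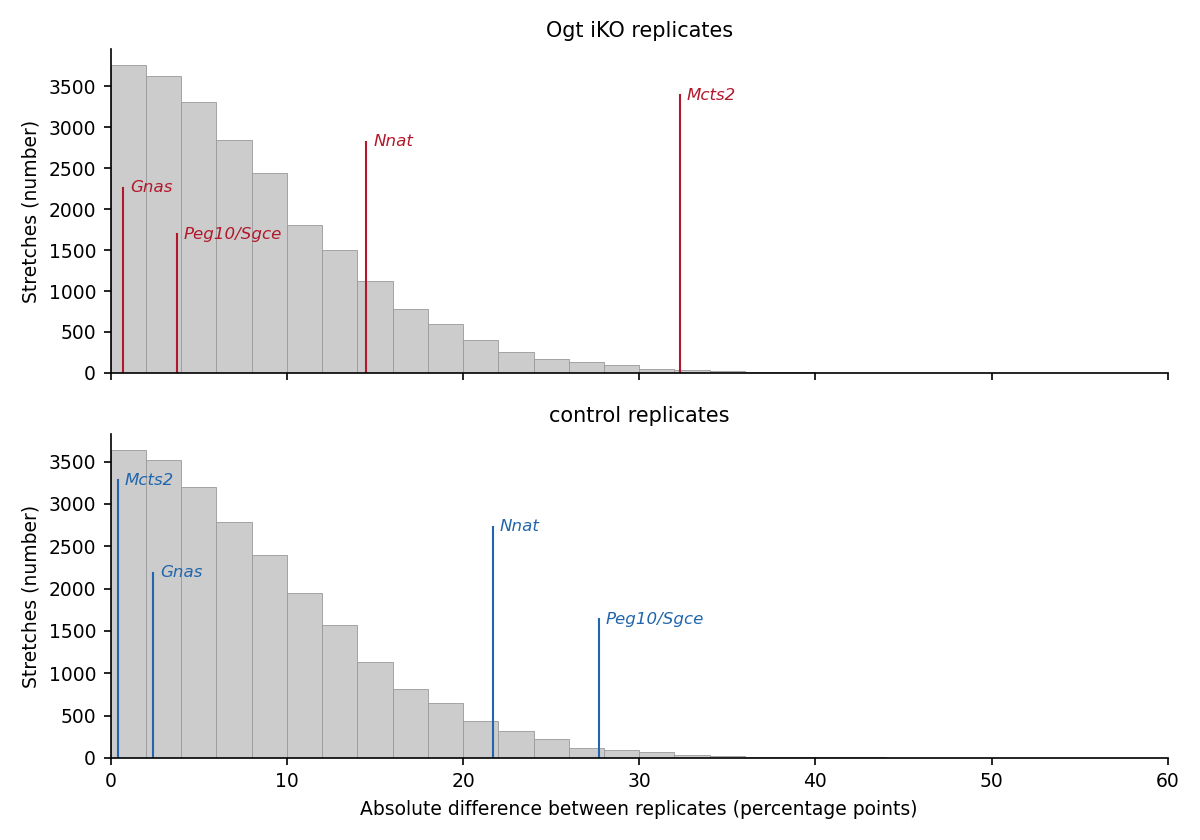
Histogram of the absolute difference between replicates, in percentage points, over the 22986 CpG-dense stretches with a mean level of 25% to 75%, for Ogt iKO (top) and control (bottom); vertical lines mark the stretches of 4 loci, and Mcts2, whose mean is below 25%, is not part of the histogram. Mcts2 is far to the right in Ogt iKO only (32.3 points), and Nnat and Peg10/Sgce in control (21.7 and 27.7 points). The Gnas line is its longest stretch, from 174295001, and is at the left in both. The Gnas stretch from 174336501, with 7.7 points in Ogt iKO and 16.4 in control, is not marked.

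Ogt iKO was compared with control in every 500 bp bin with at least 5 covered CpGs and 10 reads in each library, by a quasi-binomial logistic model with limma's moderated dispersion. Of 1104888 bins, 0% passed an adjusted p of 0.05 with a difference of 10 points, and 0 of the 186 bins of the 5 windows did. On simulated data of the same depth, in which only a very small share of bins was changed, the changed bins did not pass this adjustment either. With so few changed bins the simulation cannot say how many real changes would pass. The count of 0 does not show that bins were alike. At an unadjusted p under 0.05, 86685 bins passed in the genome. Of all bins, 7.66% passed as lower in Ogt iKO and 0.187% as higher, and 17 and 2 of the 186 did so at the 5 genes. The edgeR quasi-likelihood test called 3 bins of the genome, none of them at these genes, with 112691 at an unadjusted p under 0.05, and limma on logit levels called 0, with 111786. The smallest p among the 186 was that of chr6:4693501-4694000 in Sgce, where the levels were 55.6% and 36% in Ogt iKO and 86.1% and 85.7% in control (unadjusted p = 0.00844, adjusted p = 0.583, quasi-binomial model with limma). The contrast is the one used to choose the genes, and the bins are given as a description.

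The median difference over the tested bins was -8.99 points for Mcts2 (11 bins), -1.9 for Nnat (17), -4.9 for Gnas (70), -11 for Peg10 (17) and -10 for Sgce (82), beside -7.93 over all bins tested. Outside the dense bins, Ogt iKO minus control was -10.4 points at Mcts2, -7.82 at Nnat, -8.81 at Gnas, -9.93 at Peg10 and -9.4 at Sgce. All covered CpGs of the libraries had this direction too, at 66.4% and 64% in Ogt iKO and 71.2% and 74.8% in control. The windows of Peg10 and Sgce share sequence. Within the stretches over the starts of Mcts2 and Nnat and the shared one of Peg10/Sgce, the groups differed by 16.3, 7.97 and 3.7 points the other way. Without Ogt iKO replicate 2, control replicate 1 and control replicate 2 these became 0.208, -2.88 and -10.2 points. At Mcts2 both controls were nearly unmethylated (1.69% and 2.11%), below the level of a region methylated on a single allele. In the Gnas stretches the difference was -3.95 points at the Nesp start and -3.49 points in the intermediate one, the direction of the flanks, and 1.75 points in that with exon 1A. That of the intermediate stretch was 0.147 points with all listed CpGs, and that with exon 1A was -1.06 points as an unweighted mean over CpGs.

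Read depth was not used to choose the genes and was compared between the groups. Depth was taken as reads per listed CpG in a window over that of its chromosome. It was 0.93 and 0.989 in Ogt iKO and 1.07 and 1.11 in control at Mcts2 (two-sided exact permutation test, p = 0.333, the smallest that 2 against 2 libraries can give). The difference of -0.128 was -0.558 over the gene without its flanks. At Nnat it was 0.711 and 0.828 against 0.799 and 1.09 (p = 0.667, exact permutation test). It was 0.82 and 0.74 against 0.841 and 0.814 at Gnas (p = 0.667), 0.823 and 0.818 against 0.799 and 0.922 at Peg10 (p = 1) and 1.09 and 1.12 against 1.11 and 1.15 at Sgce (p = 0.667), all by the same exact permutation test. The difference at Peg10 was -0.0403, and 0.021 without control replicate 2. The library that stood apart at Mcts2, Ogt iKO replicate 2, had a depth between those of the other libraries.

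Other imprinted loci were read in the same way from a list of 12 known as methylated in the egg and 4 in the sperm, over the dense bins of each window. The range between the 4 libraries had a median of 11.8 points over the 12 loci (3.52 to 56.9) and 7.62 points over the 4 (2.9 to 21.5). The 5 genes described here, chosen for unequal libraries and with 7 dense bins shared by Peg10 and Sgce, had ranges of 3.91 to 32.7 points, and nothing is read from setting them beside the lists. The 3 with the widest range were Nap1l5, Zrsr1 and Meg3. Nap1l5, a retrogene, stood at 51.8% and 63.4% in Ogt iKO, 6.49% in control replicate 1 and 57.5% in control replicate 2, so that a single control library was low. Zrsr1, a retrogene that encodes a splicing factor, stood at 12.2% and 23.9% against 39.7% and 44.6%, and Meg3, a maternally expressed long RNA, at 60.6% and 49.8% against 66.8% and 71.3%.

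The protein-coding genes most like each stretch were found by the root mean square difference of the level at their CpG-richer end over the 4 libraries, among 13369 ends. Nearest to Mcts2 were Igf2r (5.84 points), Tbc1d20 (5.88) and Diaph2 (5.94). Igf2r, an imprinted growth factor receptor, had 5.06% and 32.1% in Ogt iKO replicates 1 and 2 and 9.52% and 9.92% in control. Tbc1d20 had 3.55% and 27.1% against 8.51% and 8.18%, and Diaph2 0.926% and 22.6% against 2.53% and 2.04%. Ends were picked by this likeness, so the shared high library follows from the search. Nearest to Nnat were Tom1l1 (2.69), Trim67 (2.84) and Lrrc10 (4.81), to the shared Peg10 and Sgce stretch Dysf (3.09), Mtnr1a (4.36) and Npy2r (5.32), and to the intermediate Gnas stretch Slc7a6 (0.631), Gcnt2 (1.36) and Mob3b (1.86). With 4 values per gene, such likeness is a description of these libraries.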

How the data were processed

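Genomic DNA of 4 mouse embryonic stem cell libraries (2 Ogt iKO, 2 control) was bisulfite-converted and sequenced. The submitters' processing notes name BSMAP, Picard and the build mm10; versions and read filters are not given in the sources used here. The deposited tables, 1 per library, were matched to samples by the genotype and number in their names. Per the file headers, they hold read counts per CpG (methylated, and all C or T reads) and an expected count, the C or T depth corrected by the authors for C/T variants from the opposite strand.

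Tables were merged on CpG position in Python 3.11.15 (PyArrow 21.0.0, NumPy 2.4.6, pandas 2.3.3). SciPy 1.17.1 gave the exact permutation tests over 6 arrangements, and the Wilson intervals were computed from their formula with NumPy. Bins were fitted in R 4.3.3 as methylated and total reads, with group as the only term, a dispersion of at least 1 moderated by limma 3.58.1, and Benjamini-Hochberg adjustment over all bins. edgeR 4.0.16 and limma on logit levels (0.5 reads added to each side) were other tests, and the fit was tested on simulated data.

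Named were the 5 genes, their dense stretches, the bin with the most CpGs in each, the 3 other imprinted loci of widest range and the 3 most alike gene ends; bins named besides were chosen after their values were seen. Members and lists were chosen with earlier results of these data known. RefSeq gave gene ends without exons, so exons and introns were not annotated, and the Gnas starts were named from general knowledge of the locus. Markers were read within 500 bp of a RefSeq start.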

Additional observations from a re-analysis of the deposited data

How the results depend on the processing

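Alternatives covered the read minimum per CpG, the depth corrected for C/T variants, CpG means, thinning, bin size, other tests and each library left out. Of 231 differences under another processing, 17 turned sign, and of 52 with a library left out 4 did, namely Nnat without control replicate 1 (7.97 to -2.88), Peg10/Sgce without control replicate 2 (3.7 to -10.2) and Sgce from 4736001 without Ogt iKO replicate 1 (2.05 to -2.65) or control replicate 2 (2.05 to -1). The setting of at least 3 reads in every library gave 7 of the turns, among 36 differences, where each other processing had 39. How many CpGs it kept in a stretch was not counted, so its values may rest on few CpGs. There the control difference (replicate 1 minus 2) was -49.7 points at Nnat and turned from -16.4 to 18.7 and from -12.9 to 33.3 at the Gnas stretches from 174336501 and 174345001. The Ogt iKO difference turned from 7.7 to -19.6 at the former and from 10.9 to -33.3 within Peg10. Ogt iKO minus control was -1.52, -7.75, 2.59 and -34.6 at the Gnas stretches from 174283001, 174295001, 174326501 and 174345001, and -2.19 at Sgce from 4733501. With unweighted CpG means it was -5.9 and -6.76 at the Gnas stretches from 174283001 and 174295001, and turned from 1.75 to -1.06 at that from 174326501 and from 2.05 to -8.91 at Sgce from 4736001. With all listed CpGs the Gnas stretch from 174295001 turned from -3.49 to 0.147. The cause of these shifts was not tested.

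The quasi-binomial fit called 0 bins, edgeR 3 and bins of 1000 bp 3, with 0 at the 5 genes. Replicate numbers share only a number: deviations of same-numbered libraries had a correlation of -0.00854, and the replicate block called 0 bins. The relative depth difference of Peg10 ranged from -0.102 to 0.021 when each library was left out. The depth of about 3 reads per CpG limits single bins, and groups of 2 could not be searched for outlying samples.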
